A study of Mus musculus with 17 samples.

Results

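The mismatch repair genes *Msh6*, *Msh3*, *Mlh3*, *Pms1*, *Pms2* and *Exo1* were followed in mouse germinal center (GC) B cells through a burst of forced division and its end. They were taken by symbol, 6 of the 21848 genes in the deposited matrices, and all 6 were found. *Exo1* and *Msh6* rose 48 h after mice were given anti-DEC-OVA, and no member was called changed at 72 h. In CDK2hi against CDK2low cells of the same mice, *Exo1*, *Pms2*, *Msh6* and *Pms1* were higher and *Mlh3* was lower. There 75.1% of all genes were called, 36.5% higher and 38.6% lower. In the time course *Exo1* was almost confined to cells called as S or G2-M. There it had 48 UMIs (unique molecular identifiers, each a counted RNA molecule) in the 9239 cells called G0-G1 and 5659 in the 7479 cells called S. In the reporter experiment, cells called G0-G1 held 115 UMIs of *Exo1* in 1212 CDK2hi cells and 10 in 2516 CDK2low cells.

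Mismatch repair removes bases that replication pairs wrongly. Msh6 and Msh3 are the alternative subunits of the complexes that recognize a mismatch, Msh6 for single mispaired bases and short loops and Msh3 for longer loops. Pms2, Pms1 and Mlh3 are the alternative subunits of the MutL complexes recruited next, of which those with Pms2 and with Mlh3 cut DNA. Exo1 is the exonuclease that degrades the strand before it is resynthesized. In GC B cells the same pathway also acts on deaminated cytosines in antibody genes, where Msh6 and Exo1 are known for the error-prone repair that spreads mutations to neighbouring A and T bases.

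Single-cell 5′ libraries were made from live GC B cells sorted from lymph nodes. NP-specific B1-8hi B cells were transferred into OVA-primed CD45.1/1 hosts, which were immunized with NP-OVA in alum in the footpad. The transferred cells that the study's methods describe carried Igh B1-8hi, Col1a1 tetO-H2B-mCherry and Vav-tTA, the last of which drives the H2B-mCherry reporter in haematopoietic cells. Treated mice received anti-DEC-OVA at day 7, an antibody that carries OVA to DEC-205 on B cells and so increases their help from T cells. In the study's anti-DEC-OVA design, the mCherry cells were a small part of the transfer and expressed DEC-205. The other B1-8hi cells had the *Ly75* gene knocked out and so lacked DEC-205. The study describes its time-course mutation data as coming from DEC-205-expressing cells. In the time course, mice named Day7 (0 h, n = 9), Day9 (48 h untreated, n = 6), Day9DEC (48 h after anti-DEC-OVA, n = 9), Day10 (72 h untreated, n = 8) and Day10DEC (72 h after anti-DEC-OVA, n = 7) were marked with hashtag antibodies and run in a pool of 25 mice and a pool of 14 mice, each holding all groups. In the reporter experiment, all mice had received anti-DEC-OVA 72 h earlier, and the sorted GC B cells carried Rosa26 DHB-tdTomato, with or without H2B-GFP. The study had crossed its DHB-tdTomato mice to B1-8hi. DHB-tdTomato is a reporter that leaves the nucleus as the kinase CDK2 becomes active. Cells with a cytoplasmic reporter (C, CDK2hi) and with a nuclear reporter (N, CDK2low) of 7 mice were sorted by imaging and run as 1 library each, so that population and library cannot be told apart. The labels give no genotype for single mice or the age of any mouse. The study states that adult mice of both sexes were used, with 1 age range for all its experiments.

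Per mouse, 292 to 1045 cells and 1984426 to 13373185 UMIs remained in the time course, and 278 to 1679 cells and 3988733 to 20394909 UMIs in the reporter experiment. All 7 markers of GC B cells were found in every mouse, with *Bcl6* at 205 to 355 and *Mef2b* at 286 to 433 UMIs per 1000000 UMIs of the mouse (CPM) in the time course. Their sum was 2170 to 3040 CPM (median 2850) in treated and 2560 to 3470 CPM (median 3280) in untreated mice at 48 h, and 2130 to 2310 CPM in CDK2hi against 2510 to 2850 CPM in CDK2low cells, without overlap. The largest part of that sum was *Cd79a*, which other B cells express too (947 to 2600 CPM in the time course and 703 to 1150 CPM in the reporter experiment). Summed T cell markers lay between 0.205 and 23.8 CPM and summed myeloid markers between 0.639 and 27.1 CPM there, and at 48 h the T cell sum was 0.377 to 4.51 CPM in treated and 5.77 to 9.59 CPM in untreated mice. The summed list of 6 naive or memory B cell markers was lower in treated mice at 48 h (93.3 to 192 CPM) than in untreated ones (233 to 408 CPM), and lower in CDK2hi (95 to 174 CPM) than in CDK2low cells (323 to 500 CPM). Summed plasma cell markers were 1190 to 2000 CPM (median 1430) in treated and 774 to 1510 CPM (median 1110) in untreated mice at 48 h. Of that list, *Jchain* was at 673 to 2360 and *Xbp1* at 72.2 to 211 CPM over the time course, and the defining *Prdm1* and *Sdc1* were at most 16.1 and 9.04 CPM. In the reporter experiment T cell sums were 0.176 to 1.55 CPM in CDK2hi and 0.364 to 51.9 CPM in CDK2low cells, and myeloid sums 0.352 to 3.06 and 0.728 to 22.7 CPM. The part of these cell markers in the results was not tested. Treated cells at 48 h also held more RNA counts, with a median of 13911 UMIs per cell against 6942 without treatment in the larger pool and 11475 against 5190 in the smaller one. Cells with the B1-8hi heavy- and light-chain pairing were 9208 of 13625 in the larger pool and 4369 of 10073 in the smaller one. Pairs of the 4 pools shared between 6 and 94 cell barcodes.

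In the genome, *Exo1* lies on chromosome 1 from 175708143 to 175741055 on the plus strand, with 15 exons in its canonical transcript (GRCm39, GENCODE annotation). *Msh6* lies on chromosome 17 from 88282418 to 88298320 on the plus strand, with 10 exons. *Mlh3* lies on chromosome 12 from 85281238 to 85317405 on the minus strand, with 12 exons. The 250 bases before the annotated start of these genes are shown because *Exo1* and *Msh6* were the members that moved together and *Mlh3* was the one that was lower in CDK2hi cells. Capitals mark the GC box GGGCGG and the CCAAT box, each read on both strands, and each run reads 5′ to 3′ along the gene's strand.
Exo1, chr1:175707893-175708142, plus strand: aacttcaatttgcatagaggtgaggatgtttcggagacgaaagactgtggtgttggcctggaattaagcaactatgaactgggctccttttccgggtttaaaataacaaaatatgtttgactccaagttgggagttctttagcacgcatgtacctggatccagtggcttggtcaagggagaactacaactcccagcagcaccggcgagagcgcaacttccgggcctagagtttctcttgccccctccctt
Msh6, chr17:88282168-88282417, plus strand: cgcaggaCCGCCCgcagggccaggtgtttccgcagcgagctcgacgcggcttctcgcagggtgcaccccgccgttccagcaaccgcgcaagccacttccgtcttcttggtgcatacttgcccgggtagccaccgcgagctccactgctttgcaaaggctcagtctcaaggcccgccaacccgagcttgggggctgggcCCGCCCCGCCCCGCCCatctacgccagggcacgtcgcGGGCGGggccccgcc
Mlh3, chr12:85317406-85317655, minus strand: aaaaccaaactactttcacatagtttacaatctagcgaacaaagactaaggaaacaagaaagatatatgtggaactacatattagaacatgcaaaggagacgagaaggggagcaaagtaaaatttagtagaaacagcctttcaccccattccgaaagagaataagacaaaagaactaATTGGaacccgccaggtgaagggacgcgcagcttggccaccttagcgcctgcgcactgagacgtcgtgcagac
The *Msh6* window held 5 GC boxes, of which neighbours share a base, and was 71.6% G and C. The *Mlh3* window held 1 CCAAT box and was 43.6% G and C, and the *Exo1* window held neither motif and was 48.8% G and C. Of 21738 protein-coding genes, 29.9% had a GC box and 36.1% a CCAAT box in the same window. The E2F motifs TTTCCCGC and TTTGGCGC, searched on both strands, were in none of the 3 windows shown and in 1.45% of all, and the CHR motif TTTGAA was in none of the 3 and in 16.9% of all. Among the windows not shown, that of *Msh3* held TTTGGCGC once and 3 GC boxes, that of *Pms1* held 2 GC boxes, and that of *Pms2* held none of these motifs.

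*Msh3* lies on chromosome 13 from 92348380 to 92491533 on the minus strand, with 24 exons. *Pms1* and *Pms2* start next to a gene on the opposite strand. *Pms1* (chromosome 1, 53227800 to 53336482, minus strand) overlaps the start of *Ormdl1* by 255 bases, and *Pms2* (chromosome 5, 143846412 to 143870786, plus strand) overlaps that of *Aimp2* by 254 bases. *Exo1* and *Msh6* also overlap other-strand genes, a long noncoding RNA by 647 bases and *Fbxo11* by 778 bases. Whether strand was used in counting is not given in the sources used here, so reads of such overlaps could not be assigned to 1 gene with certainty. Strand would not separate genes on the same strand. There *Pms2* overlaps *Gm42421* by 5794 bases and *Rsph10b* by 934 bases, *Exo1* overlaps *Gm23805* by 107 bases, and *Mlh3* overlaps *Mir6938* by 63 bases.

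The first comparison asked how the genes stood during the burst of division at 48 h. *Exo1* lay between 23.2 and 38.7 CPM (median 32.3) in the 6 untreated mice. In the 9 treated mice it lay between 33.3 and 48.02 CPM (median 43.5). The groups overlapped in the larger pool and were separate in the smaller one, which held 3 treated and 2 untreated mice. *Mlh3* was separate there too, lower with treatment, and was not called by edgeR with that pool alone (adjusted p = 0.555). How many of all genes were separate in this way was not counted. The means were 31.6 ± 6.33 and 41.7 ± 4.55 CPM (SD), and the fitted log2 fold change was 0.47 (SE 0.094, adjusted p = 6.88e-05, edgeR quasi-likelihood test with Benjamini-Hochberg adjustment over all genes), or 1.39-fold.

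*Msh6* lay between 69.5 and 97.6 CPM (median 79.3) in untreated mice. In treated mice it lay between 82.2 and 109.8 CPM (median 99.7). All treated mice were above all untreated mice of their own pool, a separation that was not counted over all genes. The means were 81.9 ± 9.85 and 98.1 ± 8.12 CPM, and the log2 fold change was 0.34 (SE 0.059, adjusted p = 1.07e-05), or 1.26-fold.

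The other 4 members did not pass the test at 48 h. *Msh3*, the other recognition subunit, had a log2 fold change of 0.12 (SE 0.061, adjusted p = 0.0875), and it passed with only the 2 groups compared in the fit (0.10, adjusted p = 0.0465) and without Day9DEC mouse C3 (0.145, adjusted p = 0.0492). Of the MutL subunits, *Pms1* and *Pms2* each had 0.05 (SE 0.071 and 0.059) and *Mlh3* had −0.03 (SE 0.093). *Pms1* passed (0.33, adjusted p = 0.0335) when cells were thinned, that is, when each cell was reduced at random to 2871 UMIs and shallower cells were left out. Thus 2 of 6 members were called, both higher, where 47.4% of the 10220 genes tested were called and 26.3% were called higher. The median log2 fold change of all genes was 0.01. Of the genes called, 55.4% were higher, and with plain library totals in place of TMM scaling (which sets the bulk of genes equal) 38.0%, with *Exo1* and *Msh6* called higher in both. With the smaller pool alone, *Exo1* was not called (log2 fold change 0.34, adjusted p = 0.0539), and *Msh6* was (0.24, adjusted p = 0.0433). With cells of the B1-8hi pairing alone, which the study kept for its own gene expression, the log2 fold changes were 0.305 for *Exo1* (adjusted p = 0.0157) and 0.26 for *Msh6* (adjusted p = 0.00248).

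**Figure D1:**
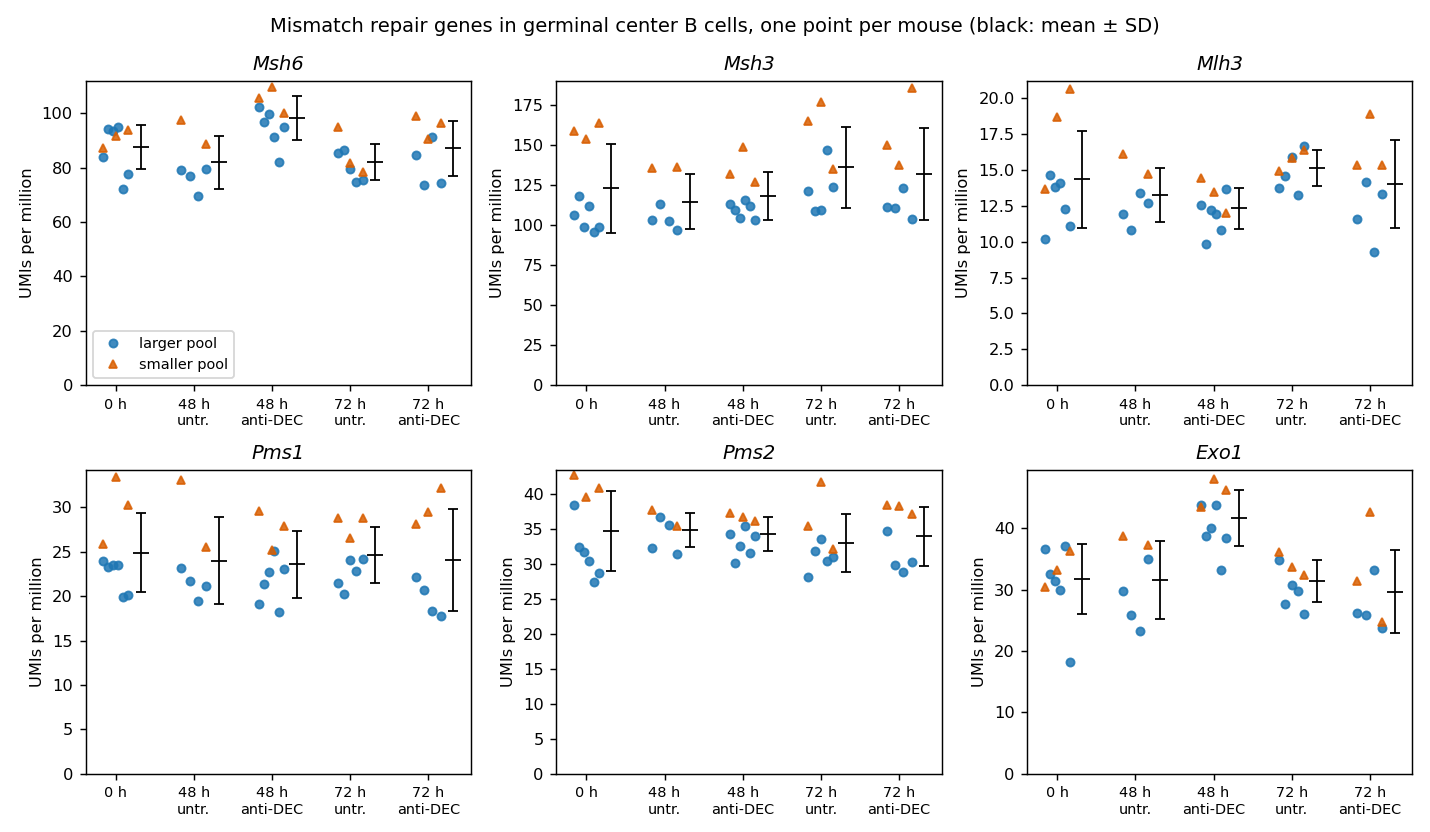
Level of each mismatch repair gene (CPM, vertical axis from 0) in the 5 groups of the time course (horizontal axis), with 1 point per mouse (circles, larger pool; triangles, smaller pool) and black marks for the mean ± SD. Exo1 and Msh6 are highest at 48 h after anti-DEC-OVA, with means of 41.7 and 98.1, and Msh3 differs more between the pools than between the groups, with means of 104 to 122 in the larger and 136 to 159 in the smaller pool.

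By 72 h the treated and untreated mice no longer differed by the test. *Exo1* lay between 26.0 and 36.1 CPM (median 31.6) in untreated mice and between 23.8 and 42.7 CPM (median 26.2) in treated mice. *Msh6* lay between 74.6 and 94.8 CPM (median 80.6) in untreated mice and between 73.5 and 99.01 CPM (median 90.6) in treated mice. For both genes the groups overlapped. The log2 fold changes were −0.10 (SE 0.11, adjusted p = 0.656) for *Exo1* and 0.07 (SE 0.062, adjusted p = 0.548) for *Msh6*, and the largest in size was −0.17 for *Mlh3* (SE 0.10, adjusted p = 0.323). *Msh3* and *Pms1* had −0.08 and −0.09, and *Pms2* had 0.02. No member was called, where 8.55% of genes were, and 0 of the 6 had an unadjusted p under 0.05, with 0 called by DESeq2 as well.

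Treated mice at 48 h and 72 h were then compared. *Exo1* was higher at 48 h by a log2 fold change of 0.61 (SE 0.095, adjusted p = 1.09e-06) and *Msh6* by 0.28 (SE 0.058, adjusted p = 8.67e-05). *Pms2* had 0.13 (SE 0.060, adjusted p = 0.0579), and it passed without Day10DEC mouse E1 (0.15, adjusted p = 0.049), Day10DEC mouse M23 (0.16, adjusted p = 0.0309) or Day7 mouse M01 (0.135, adjusted p = 0.0413). *Pms1* had 0.14 (SE 0.071, adjusted p = 0.106), and it passed when cells were thinned (0.36, adjusted p = 0.022). *Msh6* stood at 0.18 with plain library totals and with B1-8hi cells alone, called in both. *Exo1* and *Msh6* were 2 of 6 members, both higher, where 49.1% of genes were called and 26.8% were higher. The treatment effect itself differed between 48 h and 72 h for *Exo1* (difference of log2 fold changes 0.57, SE 0.14, adjusted p = 0.0019) and for *Msh6* (0.26, SE 0.086, adjusted p = 0.017), again 2 of 6 and both higher, where 31.5% of genes were called and 18.5% were higher. With plain library totals the share of calls that were higher went from 54.6% to 34.3% for 48 h against 72 h and from 58.7% to 37.6% for the difference. For *Msh3* that difference was 0.20 (SE 0.087, adjusted p = 0.0671). With cells of the B1-8hi pairing alone neither difference passed the test, with 0.36 for *Exo1* (adjusted p = 0.0889) and 0.14 for *Msh6* (adjusted p = 0.364), and neither did with the smaller pool alone (0.41, adjusted p = 0.166, and 0.085, adjusted p = 0.71). *Msh6* also lost its call with plain library totals (0.18, adjusted p = 0.101), without a term for the pool (0.26, adjusted p = 0.0643) and with thinned cells (0.27, adjusted p = 0.0761). With thinned cells *Pms1* was called in its place (0.515, adjusted p = 0.0392, against 0.14, adjusted p = 0.336, with all UMIs). Leaving out 1 mouse at a time, *Exo1* kept its call, and *Msh6* lost it without Day10 mouse M19 (0.21, adjusted p = 0.0656), Day10DEC mouse M24 (0.20, 0.0752), Day9 mouse M09 (0.21, 0.0595), Day9DEC mouse M12 (0.21, 0.0582) or Day9DEC mouse M14 (0.22, 0.0547). *Msh3* gained it without Day10 mouse D3, Day10DEC mouse E3 or Day9DEC mouse C3 (0.24, 0.245 and 0.225). In the untreated mice, 0 of 6 members were called at 48 h or at 72 h against 0 h, where 0.127% and 4.41% of genes were. The first share rests on 13 genes, which became 6 to 24 when 1 mouse was left out. DESeq2 also called none, and *Msh3* and *Msh6* had an unadjusted p under 0.05 at 72 h (0.0428 and 0.0437).

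The levels were next compared between cells called as G0-G1, S and G2-M from other cell-cycle genes, with all members and the other repair genes described below taken out of the scoring lists. The calls and the levels come from the same cells, and 6.59% of the time-course cells lay near a boundary between calls (within 0.05 of a score cutoff). Cells called G0-G1 were also shallower, with a median of 5123 UMIs against 10587 in S and 11401 in G2-M. In the 39 mice, *Exo1* was at 1.23 ± 1.46 CPM in G0-G1 calls, with no UMI at all in 11 mice. It was at 59.7 ± 7.54 CPM in S calls and 28.2 ± 4.81 CPM in G2-M calls, and S was above G2-M and G2-M above G0-G1 in all 39 mice. S calls held 67.0% of the UMIs of *Exo1*, G2-M calls 32.5% and G0-G1 calls 0.57%, against 39.1%, 40.0% and 20.9% of all UMIs. How many of the 48 UMIs in G0-G1 calls came from free RNA was not tested.

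*Msh6* was at 55.4 ± 10.5 CPM in G0-G1, 130.4 ± 12.9 CPM in S and 66.6 ± 11.5 CPM in G2-M calls. It was higher in S than in G0-G1 calls in all 39 mice, with a log2 fold change of 1.31 (SE 0.041, adjusted p = 1.49e-51), and higher in G2-M than in G0-G1 calls by 0.40 (SE 0.045, adjusted p = 8.77e-14). The nuclease subunit gene *Pms2* was higher in S by 0.84 (SE 0.057) and in G2-M by 0.62 (SE 0.059). *Pms1* was higher in S by 0.78 (SE 0.052) and in G2-M by 0.20 (SE 0.056), a call that was lost with plain library totals (0.097, adjusted p = 0.156) and with the smaller pool alone (0.074, adjusted p = 0.558).

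*Msh3* and *Mlh3* varied least with the call. *Msh3* was at 122.1 ± 34.2 CPM in G0-G1 and 136.8 ± 24.1 CPM in S calls, a log2 fold change of 0.26 (SE 0.033, adjusted p = 6.8e-12), and at 115.5 ± 23.8 CPM in G2-M calls, where the value of 0.04 did not pass and its direction turned with plain library totals (−0.06), while it was called higher with B1-8hi cells alone (0.19, adjusted p = 4.57e-06), in the larger pool alone (0.12, adjusted p = 0.00401) and without the filter on low counts (0.08, adjusted p = 0.0356). *Mlh3* did not pass in S calls (0.03, SE 0.078, and −0.04 with plain library totals) and was lower in G2-M calls by −0.23 (SE 0.081, adjusted p = 0.00849). So 5 of 6 members were called in S against G0-G1, where 85% of the 8916 genes tested were and 39.1% were higher. In G2-M against G0-G1 calls 5 of 6 were called, 4 higher and 1 lower, where 81% of genes were called, 38% higher and 43% lower. *Mlh3* lost its call with cells of the B1-8hi pairing alone (−0.17, adjusted p = 0.139) and with the smaller pool alone (−0.21, adjusted p = 0.187).

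**Figure D2:**
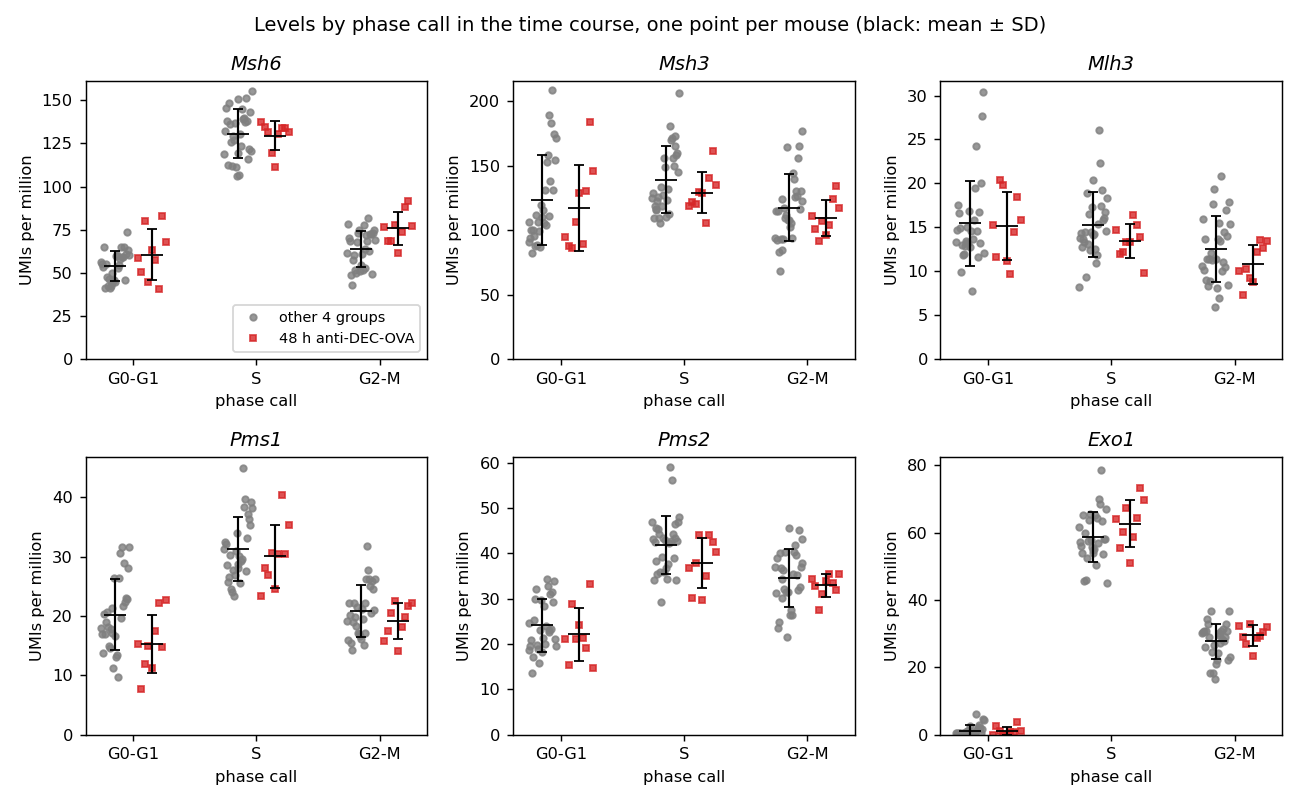
Level of each gene (CPM, vertical axis from 0) in cells called G0-G1, S or G2-M (horizontal axis), with 1 point per mouse of the time course, red squares for the 9 mice at 48 h after anti-DEC-OVA, grey circles for the mice of the other 4 groups, and black marks for the mean ± SD of each set. Exo1 is near 0 in G0-G1 calls and highest in S calls, and its levels in the treated mice at 48 h lie within the range of the others in each call.

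Anti-DEC-OVA changed the shares of the calls at 48 h. G0-G1 calls made up 18.8% ± 2.60 of cells in treated mice and 49.3% ± 4.56 in untreated mice, without overlap. S calls made up 41.4% ± 2.10 and 25.5% ± 2.64, and G2-M calls 39.8% ± 3.28 and 25.2% ± 4.26. Thinning left out 281 of 6053 treated and 532 of 3924 untreated cells at 48 h, of which 183 and 419 had been called G0-G1, and among the cells that remained the G0-G1 share was 17.7% ± 3.34 against 45.8% ± 8.31. At 72 h the G0-G1 shares were 44.7% ± 7.33 with and 46.4% ± 5.71 without treatment.

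Within a single call, *Exo1* did not differ between treated and untreated mice at 48 h by the test. In S calls it was at 62.7 ± 7.06 CPM with and 60.5 ± 11.6 CPM without treatment, a log2 fold change of 0.08 (SE 0.079, adjusted p = 0.528). In G2-M calls it was at 29.5 ± 2.99 and 29.4 ± 6.2 CPM (0.02, SE 0.11, adjusted p = 0.927). In G0-G1 calls it had 8 UMIs in each group and was removed by the filter on low counts. Without that filter it was not called there (0.31, SE 0.75, adjusted p = 0.964), and at this depth a difference was not detectable.

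*Msh6* in S calls was at 129.4 ± 8.41 CPM with and 132.0 ± 13.2 CPM without treatment (log2 fold change 0.00, SE 0.063, adjusted p = 0.992). In G2-M calls it was higher with treatment, at 75.8 ± 9.46 against 60.7 ± 11.5 CPM (0.34, SE 0.092, adjusted p = 0.00835). That call was lost when cells were thinned (0.18, adjusted p = 0.449) and with the smaller pool alone (0.28, adjusted p = 0.33). In G0-G1 calls it had 0.29 (SE 0.12, adjusted p = 0.119). The counts of members called were 0 of 5 tested in G0-G1 calls, 0 of 6 in S calls and 1 of 6 in G2-M calls, where 7.75%, 15.3% and 16.7% of genes were called, the last with 8.17% higher. With plain library totals the share of calls that were higher went from 50.0% to 35.3% in S and from 49.1% to 37.5% in G2-M calls. DESeq2 gave the same counts. In G0-G1 calls 2 members had an unadjusted p under 0.05, *Msh6* higher (0.29) and *Pms1* lower (−0.348), and in S calls none did.

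**Figure D3:**
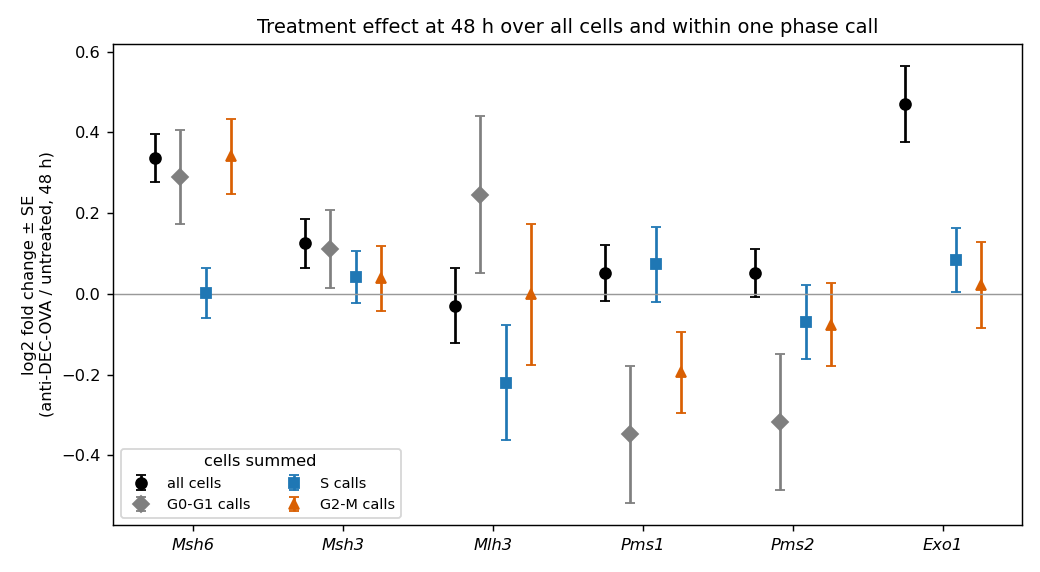
Log2 fold change at 48 h of anti-DEC-OVA over untreated mice with its SE (vertical axis) for each gene (horizontal axis), over all cells and within cells of one phase call. Exo1 is at 0.47 over all cells and at 0.08 and 0.02 within S and G2-M calls, and it has no point for G0-G1 calls, where the filter on low counts removed it.

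The sort on the CDK2 reporter asked how the genes stood in cells with high and low CDK2 activity of the same mouse. For its own comparison the study kept cells with the expression profile of the GC dark zone, where cells divide. Here cells were not selected by zone. *Exo1* lay between 44.5 and 54.1 CPM (median 45.2) in the CDK2hi cells of the 7 mice. In their CDK2low cells it lay between 9.95 and 19.3 CPM (median 14.0). It was higher in CDK2hi cells in all 7 pairs, by a log2 fold change of 1.94 (SE 0.069, adjusted p = 1.19e-18), or 3.83-fold. *Pms2* lay between 33.5 and 43.0 CPM in CDK2hi and between 21.9 and 27.3 CPM in CDK2low cells, without overlap, and was higher by 0.78 (SE 0.049, adjusted p = 1.77e-13). The share of all genes without overlap between the populations was not counted, here or for the members below.

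*Msh6* lay between 95.6 and 107.7 CPM (median 100.2) in CDK2hi and between 73.7 and 94.3 CPM (median 80.2) in CDK2low cells, again without overlap, and was higher by 0.48 (SE 0.041, adjusted p = 9.12e-11). *Pms1* had means of 25.3 ± 2.70 and 22.2 ± 1.40 CPM, overlapping between the populations, and was higher by 0.37 (SE 0.054, adjusted p = 1.11e-06). *Mlh3* was lower in CDK2hi cells, at 10.6 ± 1.18 against 15.6 ± 2.48 CPM, without overlap, and in all 7 pairs (log2 fold change −0.37, SE 0.082, adjusted p = 2.91e-04).

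The direction of *Msh3* depended on the scaling. As a share of all UMIs it was lower in CDK2hi cells in all 7 pairs (132.4 ± 6.68 against 145.3 ± 9.26 CPM), whereas the fit with TMM scaling gave 0.07 (SE 0.028, adjusted p = 0.0374). With plain library totals the fit gave −0.13 (adjusted p = 1.34e-04), and the median of all genes moved from −0.02 to −0.22. Without the pairing by mouse *Msh3* was not called (0.06, adjusted p = 0.19), nor with DESeq2 (0.07, adjusted p = 0.122), nor without mouse M1, M3, M4 or M5 (0.06, 0.06, 0.07 and 0.05, adjusted p = 0.104, 0.0915, 0.0505 and 0.129). A change of scaling moves all genes by nearly the same amount, so these fits cannot decide the direction of *Msh3*. The fit with TMM scaling called 6 of 6 members, 5 higher and 1 lower. Of the 10120 genes tested, 75.1% were called there, 36.5% higher and 38.6% lower. With plain library totals the values were 0.28 for *Msh6*, 0.17 for *Pms1* and −0.56 for *Mlh3*, all called. There 4 members were higher and 2 lower, and 2411 genes were higher and 5822 lower against 3690 and 3906.

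**Figure D4:**
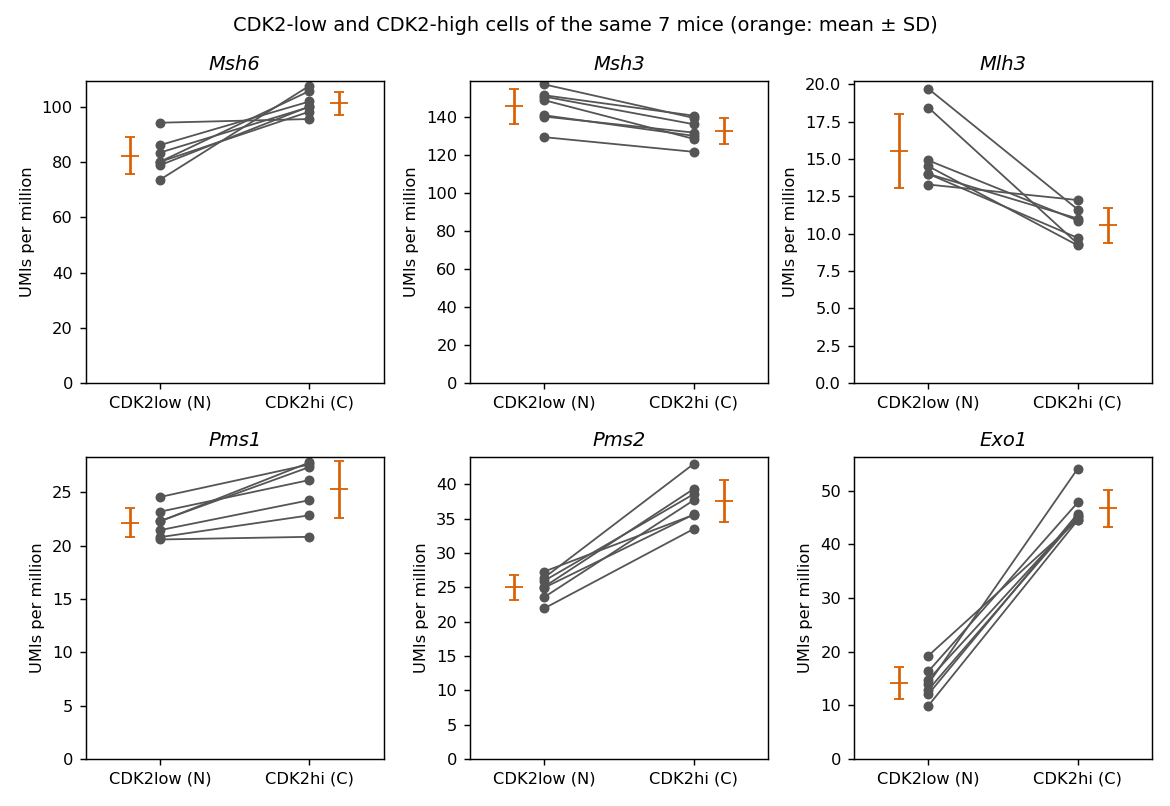
Level of each gene (CPM, vertical axis from 0) in CDK2low (N) and CDK2hi (C) cells, with a line joining the cells of each of the 7 mice and orange marks for the mean ± SD. Lines rise from N to C for Exo1, Pms2, Msh6 and Pms1 and fall for Mlh3 and Msh3, before the scaling that raises the fitted value of Msh3 to 0.07.

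The populations also differed in their phase calls. G0-G1 calls made up 15.8% ± 3.03 of CDK2hi and 57.3% ± 4.14 of CDK2low cells, and G2-M calls 46.0% ± 4.71 and 9.58% ± 2.10. S calls were 38.2% ± 3.92 and 33.1% ± 2.71. Of the cells of the reporter experiment, 10% lay near a boundary between calls. CDK2low cells were deeper within each call. Their medians were 11332.5, 16253.5 and 15049 UMIs in G0-G1, S and G2-M calls, against 8427.5, 12085 and 10214 in CDK2hi cells. Whether a call marks the same phase in both populations was not tested. Within S calls, a comparison chosen after the shares were seen, *Exo1* was at 70.0 ± 4.91 CPM in CDK2hi and 32.8 ± 6.58 CPM in CDK2low cells (log2 fold change 1.28, SE 0.072, adjusted p = 2.07e-16). Within G2-M calls it was at 33.5 ± 2.05 and 6.60 ± 4.29 CPM. Within G0-G1 calls *Exo1* had 115 UMIs in 1212 CDK2hi cells and 10 UMIs in 2516 CDK2low cells.

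*Msh6* was higher in CDK2hi cells within each call, by 0.65 in G0-G1, 0.23 in S and 0.58 in G2-M calls. *Pms2* was higher by 0.65, 0.48 and 0.94. *Pms1* was higher by 0.19 in S and 0.66 in G2-M calls and did not pass in G0-G1 calls (0.21, adjusted p = 0.162). *Mlh3* passed within no call (−0.34, −0.22 and −0.27 in G0-G1, S and G2-M calls, adjusted p = 0.0698, 0.0988 and 0.296), and *Msh3* had −0.19 in G2-M calls (adjusted p = 0.0263). In these fits 61%, 63.1% and 50.5% of genes were called in G0-G1, S and G2-M calls.

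The enzymes that follow excision in mismatch repair and in replication were described by a list of 14 genes. At 48 h, 12 of the 14 were higher with anti-DEC-OVA and 1 was lower, with a median log2 fold change of 0.41 against 0.01 over all genes, of which 47.4% were called and 26.3% were higher. The largest changes were those of *Rfc4*, a subunit of the clamp loader (0.63, SE 0.072), *Rpa2*, a subunit of the protein that coats single-stranded DNA (0.57, SE 0.082), and *Pcna*, the sliding clamp (0.56, SE 0.075). *Pcna* went from 388.4 ± 25.4 to 544.0 ± 33.1 CPM. *Pold4*, the small subunit of DNA polymerase delta, was the lower one (−0.12, SE 0.051). The counts became 11 higher and 1 lower with plain library totals, with *Pold4* at −0.20. At 72 h 1 of the 14 was called, *Pold4* (0.16, SE 0.051, adjusted p = 0.0391), where 8.55% of all genes were. In CDK2hi against CDK2low cells all 14 were higher in the fit with TMM scaling (median 1.13 against −0.02), where 36.5% of all genes were, led by *Rfc4* (1.90), *Lig1*, the ligase that seals the repaired strand (1.44), and *Pcna* (1.39). Plain library totals left 12 higher there, *Pold4* was lower (0.10 with TMM scaling and −0.097 without, adjusted p = 8.57e-04) and *Rfc1*, the large subunit of the clamp loader, was not called (0.19 and −0.004). Within S calls at 48 h, 3 of the 14 were higher with treatment, *Rpa3*, *Rpa2* and *Rfc4* (0.21, 0.20 and 0.16). There 15.3% of all genes were called, and 707 of 9232 were higher. Within G2-M calls 8 of the 14 were higher, where 8.17% of all genes were.

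Of 5 genes of error-prone gap filling, all 5 rose at 48 h, where 26.3% of all genes were higher, led by *Polh*, the DNA polymerase eta that copies across from A and T in GC B cells (0.44, SE 0.063), *Usp1*, which removes ubiquitin from the clamp (0.41, SE 0.057), and *Rad18*, which attaches it (0.41, SE 0.061). These 3 were also called at 48 h with plain library totals, and *Ube2a* and *Ube2b* were not (0.085 and 0.06). At 72 h 0 of 5 were called, where 8.55% of all genes were. All 5 were higher in CDK2hi cells, where 36.5% of all genes were (*Polh* 1.61, *Rad18* 1.49 and *Usp1* 1.16), and with plain library totals 4 were, with *Ube2b* at 0.018. Within S calls at 48 h 2 of the 5 were higher, *Polh* among them (0.33, SE 0.070, adjusted p = 6.94e-04), where 707 of 9232 genes were. Within G2-M calls 0 of 5 were called, where 16.7% of all genes were. Of the accessory and meiotic list, 5 of 7 genes were abundant enough to be tested. *Mcm8*, a helicase subunit, and *Hmgb1*, a DNA-bending protein, rose at 48 h (0.45 and 0.35), and *Mcm9*, the helicase partner of Mcm8, fell (−0.26, SE 0.079). In CDK2hi cells *Mcm8* (1.57), *Hmgb1* (1.52) and the meiotic *Msh5* (0.72) were higher, and *Setd2*, a histone methyltransferase, was lower (−0.12, and −0.315 with plain library totals).

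**Figure D5:**
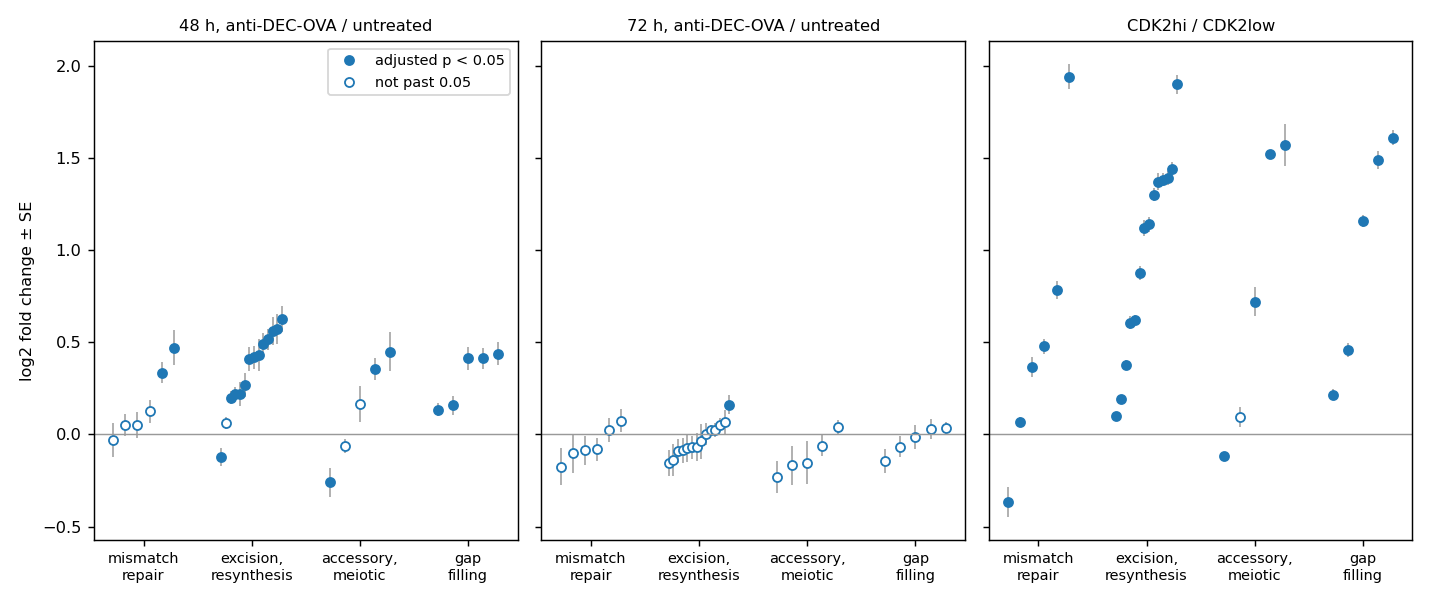
Log2 fold changes with SE (vertical axis) of the 6 mismatch repair genes and of the genes tested in each of 3 repair lists (horizontal axis), for anti-DEC-OVA over untreated at 48 h and at 72 h and for CDK2hi over CDK2low cells; filled points passed an adjusted p of 0.05. Nearly all genes of excision and resynthesis lie above 0 at 48 h and around 0 at 72 h, and all 14 lie above 0 in CDK2hi cells under the TMM scaling plotted here, where plain library totals put Pold4 at −0.097 and Rfc1 at −0.004.

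The genes most like each member were those whose log2 CPM went with it most closely over the 39 time-course mice after removing the mean of each pool, among 6813 genes. These correlations are descriptions across mice that share 2 libraries, the 5 groups and differences in depth. For *Exo1* they were *Mcm10* (r = 0.904), *Prelid3b* (0.902) and *Tagln2* (0.902), and for *Msh6* they were *Tcf19* (0.773), *Raly* (0.756) and *Mcm4* (0.746). For *Msh3* they were *Mtf2* (0.704), *Lipc* (0.70) and *Cecr2* (0.68), and for *Mlh3* *Tbc1d5* (0.654), *Ddx50* (0.639) and *Aagab* (0.623). *Pms1* went most closely with *Nup160* (0.602) and *Slf1* (0.53), and *Pms2* with *Supt6* (0.501), *Anapc7* (0.468) and *Ptar1* (0.467). Among the members, *Exo1* and *Msh6* had r = 0.60, *Mlh3* and *Pms1* 0.41, and all other pairs lay between −0.23 and 0.25.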

How the data were processed

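Single-cell 5′ gene-expression libraries of lymph node GC B cells were analysed from 2 time-course pools and 2 reporter pools. The authors deposited UMI counts per gene and cell and per hashtag and cell, not normalized, and contigs with UMI counts. The file headers name CellRanger 8.0.1, the submitters' notes Cell Ranger 6.0.1 and Seurat 5.1.0, and the build is mm39. The authors' lists of mice gave hashtags and groups. Other experiments of the series were not used here.

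Hashtag cutoffs followed HTODemux (quantile 0.99), rebuilt from its steps, and a cell was assigned if it was positive for the hashtags of 1 mouse and for no others. Cells with extra hashtags were left out (1936, 2705, 975 and 507), which removes doublets between mice but not within a mouse. Of 9 mice listed for the reporter pools, 7 were used, since the hashtags of the other 2 averaged under 1 UMI per cell. Each reporter pool also held 1 hashtag that the authors' lists do not name, and cells positive for it were left unassigned. Cells needed 200 genes and under 10% mitochondrial UMIs, a filter that removed 3114 cells of the smaller pool on mitochondrial UMIs and 350 of the larger. Phases came from CellCycleScoring (Seurat 5.3.0; 37 S and 54 G2-M genes).

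Counts were summed per mouse, the replicate, and tested by the quasi-likelihood method of edgeR 4.0.16 in R 4.3.3 after filterByExpr and TMM scaling, with a term for the pool, or for the mouse in paired comparisons, Benjamini-Hochberg adjustment over all genes and a threshold of 0.05. All time-course groups shared 1 fit. CPM are shares of all UMIs of a mouse. CDK2hi and CDK2low cells were paired by the mouse name in the authors' lists: deviations from the population means correlated at 0.111 to 0.405 within the 7 pairs, and each mouse correlated best with itself in 7 of 7. The scripts were tested on simulated counts.

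Named were all 6 members, the 3 largest called changes of each list per comparison (fewer where fewer were called), and the 3 most correlated genes. The members, lists and tests were chosen with earlier results of these data known. Not every gene of the pathway, and not every gene named by these rules, is reported here. Alternatives were DESeq2 1.42.0, no TMM, no filter on genes or cells, B1-8hi cells only, cells thinned to equal UMIs (2871 per cell in the time course, leaving out 668 and 1699 shallower cells, and 5260 in the reporter experiment, leaving out 930 and 253), another hashtag rule, no pool term, only the groups compared, each pool alone, no pairing, and each mouse left out.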

Additional observations from a re-analysis of the deposited data

Results flagged for a closer look

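The treatment effect differed between 48 h and 72 h for 2 of 6 members, where 31.5% of all genes were called, a share near that of the members. For *Exo1* the effect at 48 h minus that at 72 h was 0.57 on the log2 scale, and for *Msh6* it was 0.26, both past the threshold of the edgeR test of the difference itself (adjusted p = 0.0019 and 0.017). Both fell short of it with B1-8hi cells alone (adjusted p = 0.0889 and 0.364) and with the smaller pool alone (0.166 and 0.71). *Msh6* also did so with thinned cells (0.0761), with plain library totals (0.101), without a term for the pool (0.0643) and without any 1 of 5 single mice (0.0547 to 0.0752). Of 42 sets of gene and group tested for a mouse far from the others, 2 stood out, where chance gives about 1 in 20. One was *Exo1* in mouse M06 at 0 h, at 18.1 CPM from 36 UMIs, while the median of the 9 mice was 32.6 CPM. This mouse had the fewest cells of its group (312) and the highest share of G0-G1 calls in it (66.0%). The other was *Exo1* in the CDK2hi cells of mouse M4, at 54.1 CPM, above a median of 45.2 CPM. That mouse had 478 CDK2hi cells, the fewest of the 7, and the highest share of S calls among them (44.4%). The part of these shares in the levels was not tested.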

How the results depend on the processing

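Over the alternatives other than leaving out single mice, the log2 fold changes of the members kept their direction and their side of the threshold in 388 cases, lost significance in 24, gained it in 7 and turned direction in 26, and the counts of members called stayed within 1.5 times in 114 cases and moved in 9. None of the values that turned was called on both sides except *Msh3* in CDK2hi cells. The causes were not tested.

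With the smaller pool alone, 1 member was called at 48 h, 0 for the difference of the treatment effects, 0 within G2-M calls at 48 h and 3 in G2-M against G0-G1 calls. There the values that turned were *Pms1* at 48 h (−0.017) and in treated mice at 48 h against 72 h (−0.007) and for the difference (−0.066), *Mlh3* and *Pms1* at 72 h (0.024 and 0.049), *Mlh3* in S (−0.044) and *Msh3* in G2-M calls (−0.076), and *Exo1* and *Msh6* within S calls at 48 h (−0.012 and −0.039). With the larger pool alone *Pms2* at 48 h (−0.01) and *Exo1* within G2-M calls (−0.011) turned. With plain library totals 1 member was called for the difference of the effects, and turned values were *Pms1* and *Pms2* at 48 h (−0.024 and −0.025), *Mlh3* in S (−0.043) and *Msh3* in G2-M calls (−0.058), *Msh3* in CDK2hi cells (−0.131), *Exo1* within G2-M (−0.005) and *Msh6* within S calls (−0.028). With B1-8hi cells only 0 members were called for the difference, and *Pms1* at 48 h (−0.003) and *Exo1* within G2-M calls (−0.036) turned. Thinned, 0 were called within G2-M calls, and *Mlh3* at 48 h (0.17), *Pms2* at 72 h (−0.006), *Msh3* in G2-M calls (−0.024) and *Exo1* within G2-M calls (−0.116) turned, and *Pms1* was called at 48 h (0.33, adjusted p = 0.0335) and, in place of *Msh6*, for the difference (0.515, adjusted p = 0.0392). Without a term for the pool 1 was called for the difference. Without the cell filter *Pms1* at 48 h turned (−0.009). Within phase calls, 3 members were called between CDK2hi and CDK2low cells in G0-G1 calls, and *Msh3* turned in G2-M calls (−0.187).

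Leaving out each mouse in turn gave 1 to 3 members for the difference of the effects, and ranges that crossed or reached 0 for *Mlh3* (−0.078 to 0) and *Pms1* (−0.005 to 0.104) at 48 h and *Pms2* at 72 h (−0.005 to 0.059). Mice were not left out one by one in the comparisons of phase calls. In the paired comparison of CDK2hi and CDK2low cells, leaving out the pairing (the replicate block) changed no call but that of *Msh3* (0.064, adjusted p = 0.19).

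The counts over all genes moved with the smaller pool alone (2149 genes at 48 h, 22 at 72 h, 768 for the difference, 2661 for treated mice at 48 h against 72 h, 3 and 0 for untreated mice at 72 h and 48 h, and 20, 693 and 156 within G0-G1, S and G2-M calls). They were 332, 444 and 777 within these calls with the larger pool alone. Thinned they were 3133, 465, 1649, 2740, 172, 2, 122, 840 and 636 in the same order of comparisons as for the smaller pool. Without the pool term they were 2680, 217, 1222, 3104, 77 and 5. With B1-8hi cells only they were 1984 for the difference, 4 for untreated mice at 48 h and 182, 760 and 899 within calls. Untreated mice at 48 h had 25 with DESeq2 and 21 without the gene filter, untreated mice at 72 h had 256 with only the groups compared, and 4400 genes were called between CDK2hi and CDK2low cells within G2-M calls.

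Depth limits *Exo1* in G0-G1 calls of the time course, where it had 48 UMIs in all and its treatment effect at 48 h was estimated only without the filter on low counts (SE 0.75), and the 2 or 3 mice per group of the smaller pool limit its tests. Doublets within a mouse and free RNA were not removed.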
